A study of Mus musculus with 19 samples.

Results

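The genes studied here make the haemoglobin of the red cell and its membrane, or switch that programme on: Hba-a1, Hbb-b1, Hbb-b2, Alas2, Slc4a1, Ahsp, Klf1 and Gata1. They were read in leukocyte RNA of mice that had been injected with CAWS, and every non-control probe that the scanner files name after one of the 8 genes, or after an older synonym, was taken. Of the 8 genes, 7 had a probe, which gave 10 of the 41174 probes on the array (7 of 27745 gene names). Hba-a1, Alas2, Slc4a1, Ahsp (listed as Eraf), Klf1 and Gata1 had 1 probe each and Hbb-b1 had 4, whereas 0 probes were named Hbb-b2.

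CAWS is a mannoprotein and β-glucan complex that Candida albicans releases into its medium, and given intraperitoneally it causes coronary vasculitis in mice. Male C57BL/6 (B6) and DBA/2 mice received it on 5 consecutive days. Blood was taken right after the last injection (0 w) and from surviving mice at 2, 4, 8 and 9 w, so that all 10 strain-by-week groups had been given CAWS and no untreated group was measured. The disease is milder in B6 mice and often lethal in DBA/2 mice. RNA came from cells retained on a LeukoLOCK filter, which is meant to hold leukocytes and let red cells pass, and was labelled with Cy3 and hybridised to single-colour Agilent mouse arrays. Each group had 2 samples, except B6 2 w and B6 9 w with 1 each, and B6 0 w replicate 2 was hybridised to 2 arrays, which made 18 samples on 19 arrays. Per the methods each array was hybridised with RNA of a single mouse. The 2 samples of a group also lay on different slides and were scanned on different days. The p-values therefore measure a spread between samples that holds mouse, slide and scan day together. Groups with 1 sample borrow the spread of the others. The methods give a range of ages for all mice, raised free of specific pathogens, and not the age of each group.

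Haemoglobin is a tetramer of α- and β-globin chains, each holding a haem group. Alas2 is the erythroid form of the first and rate-limiting enzyme of haem synthesis, and Ahsp, the α-haemoglobin stabilising protein, is a chaperone that binds free α-globin. Slc4a1 encodes band 3, the anion exchanger of the red cell membrane. Gata1 and Klf1 are transcription factors, which bind GATA and CACCC sequences in the promoters and enhancers of these genes. Reticulocytes, the youngest red cells in blood, still carry RNA for globins and other red cell proteins, and platelets, basophils and eosinophils also use Gata1. B6 mice carry the single Hbb haplotype, with the genes Hbb-bs and Hbb-bt, and DBA/2 mice the diffuse haplotype, with Hbb-b1 and Hbb-b2.

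Promoters were looked for under 11 gene names, and 7 had an entry. Slc4a1, Ahsp, Hbb-b1 and Hbb-b2 had none, so their letters were not read. Hba-a2, whose promoter held CACCC, is left out here. The promoters of the other 6 genes are shown with the letters that Gata1 and Klf1 are known to bind. They are the 100 bases before the start of the gene in RefSeq (build GRCm38.p6), written 5′ to 3′ on the gene's strand, and capitals mark the letters AGATAA, also TGATAA, also AGATAG, also TGATAG, and the letters CACCC, or their reverse complements. The capitals are matches of letters only.
Hba-a1: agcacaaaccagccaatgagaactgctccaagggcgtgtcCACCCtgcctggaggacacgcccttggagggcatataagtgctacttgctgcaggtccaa
Hbb-bs: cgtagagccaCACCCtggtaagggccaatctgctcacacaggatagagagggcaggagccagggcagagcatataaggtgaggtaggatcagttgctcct
Hbb-bt: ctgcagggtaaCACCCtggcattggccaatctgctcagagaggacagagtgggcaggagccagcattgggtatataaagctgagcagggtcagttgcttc
Alas2: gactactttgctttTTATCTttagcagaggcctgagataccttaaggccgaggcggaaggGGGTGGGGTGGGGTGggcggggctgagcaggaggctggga
Klf1: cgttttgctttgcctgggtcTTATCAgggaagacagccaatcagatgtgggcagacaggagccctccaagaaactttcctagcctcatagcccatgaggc
Gata1: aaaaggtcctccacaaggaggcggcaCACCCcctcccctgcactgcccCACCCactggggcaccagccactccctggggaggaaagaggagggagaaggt
They lie at chr11:32283572-32283671 on the plus strand (Hba-a1), chr7:103827929-103828028 on the minus strand (Hbb-bs), chr7:103813924-103814023 on the minus strand (Hbb-bt), chrX:150547317-150547416 on the plus strand (Alas2), chr8:84901882-84901981 on the plus strand (Klf1) and chrX:7967911-7968010 on the minus strand (Gata1). The α- and β-globin promoters each held CACCC, and Gata1 held it at more than 1 place. The Klf1 promoter held a GATA match without CACCC, and the Alas2 promoter held both. Of all 32851 promoters in the same table, 10.4% held one of the GATA letters in these 100 bases, 27.24% held CACCC and 2.14% held both.

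The signals of Hba-a1 and of Hbb-b1 probes 1 and 2 were at or near saturation in every library, and those of Hbb-b1 probes 3 and 4 and of Alas2 lay below it. Between 1 and 8 spots per array were called saturated, and 1 to 3 of them were member probes. Hba-a1 (chr11:32183775-32183956 in mm8, the build of the probe coordinates, across an intron) was saturated on 13 of the 19 arrays. Hbb-b1 probe 1 (chr7:103687624-103687683) was saturated on all 19 and probe 2 (chr7:103687307-103687366) on 15, so these 3 probes give only signals here, with no fold. Hbb-b1 probe 3 (chr7:103686419-103686478), probe 4 (chr7:103687338-103687397), Alas2 (chrX:145911166-145911225), Slc4a1 (chr11:102165032-102165091), Klf1 (chr8:87795087-87795146), Gata1 (chrX:7116682-7116741) and Ahsp, for which the files give no position, were saturated on 0 arrays, and calls below are counted over these 7 probes. Globin and Alas2 spots were read from a second, low-gain scan on all 19 arrays, and Slc4a1 on 4. Probes 1 and 3 of Hbb-b1 also list the Hbb-b2 transcript, the Hba-a1 probe also lists that of Hba-a2, and the accession given for the 4 Hbb-b1 probes belongs to Hbb-bt in the later RefSeq table. These probes can therefore report more than 1 globin gene, and which of the strains' Hbb genes they bind was not tested.

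Scaled levels are log2 signal minus the 75th percentile signal of the array, taken over 11536 probes well above background on every array. That percentile ran from 244 to 560, a 2.3-fold range. It was 252 to 283 on the 3 arrays of B6 0 w, 560 and 537 at B6 8 w, 371 at B6 9 w, and 331 to 486 in DBA/2. Between 33.9% and 51.4% of spots were well above background. A difference between groups is therefore given relative to the other transcripts of the array. For the members the unscaled difference stands beside it where it tells another story. Without scaling, the median of all probes moved by 0.98 (log2) at B6 8 w, by 0.46 at B6 9 w, by -0.31, -0.35 and -0.44 at DBA/2 2, 8 and 9 w, by 0.46 between the strains and by -0.64 in the strain difference of the change, whereas it moved by -0.07 to -0.0004 at B6 2 and 4 w and by -0.08 at DBA/2 4 w. In RNA from a mixture of cells, fewer cells of a type and less RNA per cell cannot be told apart.

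**Figure D1:**
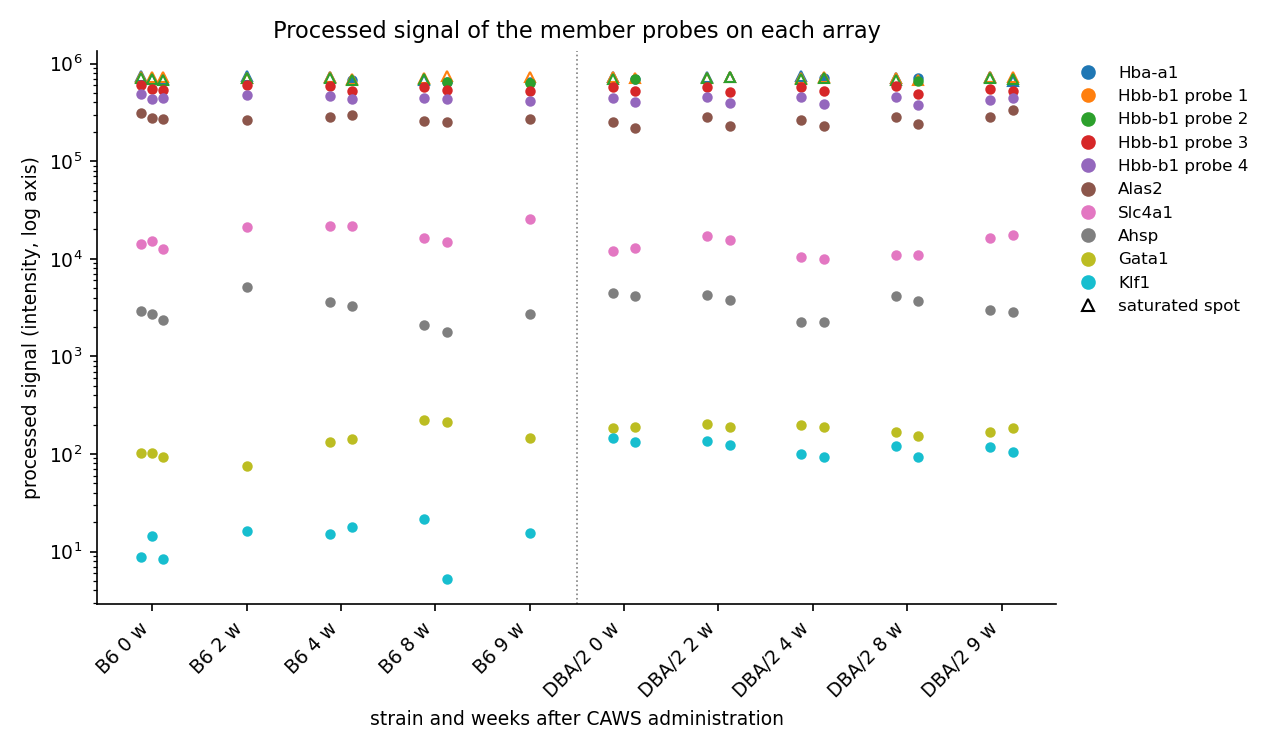
Deposited signal (log axis, arbitrary units) of the 10 member probes on each array, by strain and week; each point is 1 array. Hbb-b1 probes 3 and 4 stay within 1.26-fold and 1.30-fold over all arrays and Alas2 within 1.53-fold, and Klf1 is at most 21.7 on the B6 arrays and at least 92.3 on the DBA/2 arrays. Triangles are saturated spots.

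Over the 19 arrays Hba-a1 signals ran from 641143 to 748136, and being saturated on most arrays they give no range of the RNA. The unsaturated Hbb-b1 probe 3 ran from 486416 to 610368 and probe 4 from 377045 to 490929, 1.26-fold and 1.30-fold. For both probes the B6 and DBA/2 samples overlapped. Alas2 ran from 220743 (DBA/2 0 w replicate 2) to 338658 (DBA/2 9 w replicate 2), a 1.53-fold range.

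Relative to the other transcripts of the array, the same probes differed. At B6 8 w the scaled level of Hbb-b1 probe 3 was 1.08 lower than at 0 w on the log2 scale (log2 change -1.08, limma adjusted p = 0.00023), that of probe 4 changed by -1.09 (adjusted p = 0.000162) and that of Alas2 by -1.21 (adjusted p = 8.4e-05). Their unscaled changes were -0.06, -0.07 and -0.19, and none passed the test. At DBA/2 9 w the scaled change of Alas2 was 0.83 (adjusted p = 0.000671) and its unscaled change 0.40 (adjusted p = 0.0638). The globin probes 3 and 4 changed there by 0.40 and 0.47 (adjusted p = 0.0363 and 0.014) when scaled and by -0.03 and 0.04 unscaled. Across the 18 samples the scaled level of Hbb-b1 probe 3 had a Pearson r of -0.98 with the array's percentile, that of probe 4 -0.97 and that of Alas2 -0.95, whereas the r of their unscaled levels was -0.26, -0.38 and -0.47. These r values are descriptions, since the scaled level contains the percentile. The part of the scanner's range and of the low-gain scan in these differences was not tested.

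**Figure D2:**
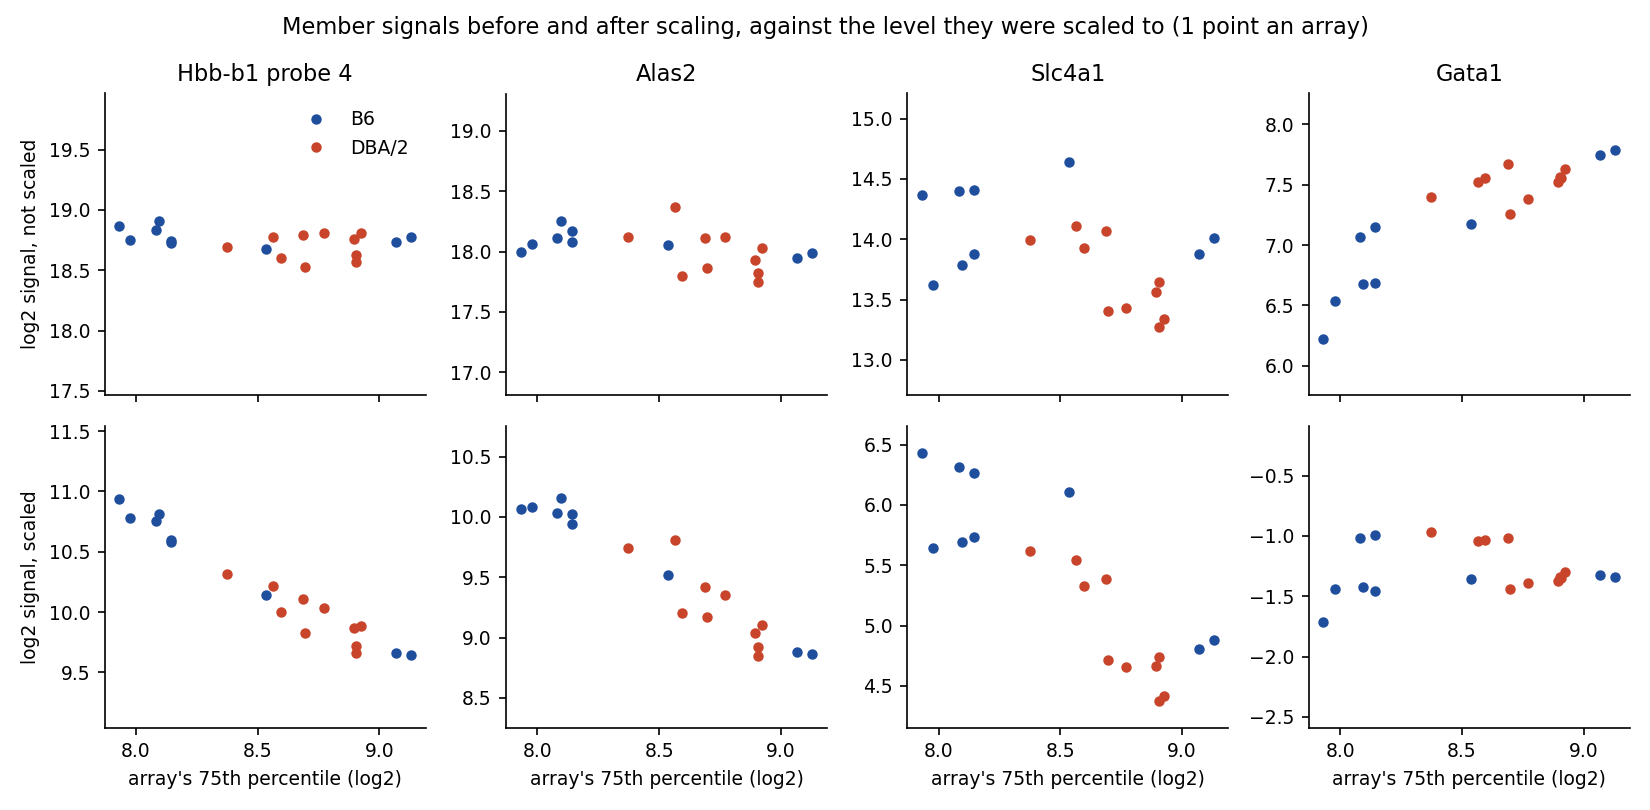
Log2 signal of Hbb-b1 probe 4, Alas2, Slc4a1 and Gata1 before scaling (upper row) and after it (lower row) against the array's 75th percentile (log2); each point is 1 of the 19 arrays, and every panel spans the same height. The Hbb-b1 signal is flat before scaling (a range of 0.38) and slopes down with the percentile after it (a range of 1.29), whereas Gata1 slopes up before scaling.

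Klf1, the factor that drives adult β-globin, was the member whose signal separated the strains. It was read from 1 probe with 1 spot per array. Whether this probe binds the Klf1 transcripts of both strains alike was not tested. Its signal was 8.89 in B6 0 w replicate 1 and 14.4 and 8.45 on the 2 arrays of replicate 2. It was 16.4 at B6 2 w, 15.0 and 17.9 at 4 w, 21.7 and 5.22 at 8 w and 15.6 at 9 w. In DBA/2 it was 147 and 133 at 0 w, 137 and 124 at 2 w, 101 and 93.2 at 4 w, 120 and 92.3 at 8 w and 118 and 105 at 9 w. All DBA/2 samples lay above all B6 samples. Over 0, 4 and 8 w, the weeks with 2 samples in both strains, the scaled level was 7.02-fold higher in DBA/2 (log2 difference 2.81, SE 0.28, adjusted p = 3.14e-05). Slides and strains were largely confounded, but slides 3 and 6 held both: on slide 3 DBA/2 9 w replicate 1 had 118 against 8.89 to 16.4 in 3 B6 samples, and on slide 6 DBA/2 9 w replicate 2 had 105 against 14.4 in B6 0 w. Klf1 was well above background on 17 of the 19 arrays, the exceptions being B6 8 w replicate 2 and the second array of B6 0 w replicate 2, and with normexp background correction the strain difference was 0.88. No change from 0 w passed the test in either strain. The changes were -0.55 to 0.15 in DBA/2 and -0.92 to 0.87 in B6, with an SE of 0.49 to 0.60, so that only large changes could have passed.

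Slc4a1, band 3, was called in 7 of the 8 comparisons from 0 w, more than any other member. Its signals in B6 were 14150, 15066 and 12620 at 0 w, 21082 at 2 w, 21620 and 21778 at 4 w, 16494 and 15030 at 8 w and 25513 at 9 w. In DBA/2 they were 12079 and 12781 at 0 w, 17220 and 15541 at 2 w, 10346 and 9920.58 at 4 w, 11018 and 10862 at 8 w and 16322 and 17682 at 9 w. Scaled, its rise in DBA/2 was 0.66 at 2 w (log2, SE 0.07, adjusted p = 0.000477) and 0.88 at 9 w (adjusted p = 3.48e-05), with a change of -0.31 at 4 w (adjusted p = 0.0179) and of -0.02 at 8 w (adjusted p = 0.898). The B6 mice had a rise of 0.74 after 2 weeks, then 0.60 at 4 w and 0.41 at 9 w (adjusted p = 0.000387, 0.000593 and 0.0179), and at 8 w a change of -0.85 (adjusted p = 4.32e-05). The rises at 2 and 9 w in both strains and at 4 w in B6 were also called without scaling, whereas the B6 8 w change was then 0.17. With normexp background correction none of these Slc4a1 rises was called by limma. With quantile normalization those at B6 2 w and B6 9 w were not called. The 4 arrays on which the Slc4a1 spot was read from the low-gain scan were those of B6 2 w, 4 w and 9 w, the groups with the B6 rises, and the part of that scan in the rises was not tested. The call at DBA/2 4 w was lost when any 1 of the 4 samples of DBA/2 0 w and 4 w was left out (adjusted p 0.0536 to 0.112), and the one at B6 9 w when either B6 0 w sample was left out (0.069 and 0.0698).

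Ahsp, the α-globin chaperone, was lowest at different weeks in the strains, at 4 w in DBA/2 and at 8 w in B6. Its signals in B6 were 2905, 2731 and 2334 at 0 w, 5084 at 2 w, 3636 and 3314 at 4 w, 2120 and 1779 at 8 w and 2703 at 9 w. In DBA/2 they were 4447 and 4155 at 0 w, 4251 and 3789 at 2 w, 2277 and 2259 at 4 w, 4110 and 3688 at 8 w and 3004 and 2862 at 9 w. Both DBA/2 4 w samples lay below all other DBA/2 samples, and both B6 8 w samples below all other B6 samples. Scaled, the Ahsp change was -0.94 at DBA/2 4 w (SE 0.12, adjusted p = 0.000787), whereas B6 2 w had 1.06 (adjusted p = 0.00103) and B6 8 w had -1.50 (adjusted p = 2.97e-05). These 3 calls were kept with all 13 other settings and with each sample left out, except that B6 2 w cannot be compared without its only sample. The size at B6 8 w was -0.48 without scaling, against -0.92 at DBA/2 4 w and 0.91 at B6 2 w. The unscaled change at DBA/2 9 w, -0.55, was also called (adjusted p = 0.0064), whereas the scaled one was not.

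Gata1, the master regulator of the erythroid and megakaryocytic lines, moved little. It had 10 spots per array. Its signals in B6 were 102, 103 and 92.7 at 0 w, 74.6 at 2 w, 134 and 142 at 4 w, 221 and 214 at 8 w and 145 at 9 w. In DBA/2 they ran from 153 (8 w replicate 2) to 204 (2 w replicate 1). Scaled rises of Gata1 were 0.33 at DBA/2 2 w, 0.35 at DBA/2 9 w and 0.43 at B6 4 w (adjusted p = 0.00842, 0.00338 and 0.00255), and the B6 8 w value was 0.10 (adjusted p = 0.314). Of these 3 rises, that at B6 4 w was also called without scaling. Unscaled, Gata1 rose at B6 8 w by 1.12 (adjusted p = 7.05e-06) beside a shift of 0.98 over all probes. The DBA/2 2 w call was lost without DBA/2 0 w replicate 1 or DBA/2 2 w replicate 1 (adjusted p 0.0527 to 0.054). The summed level of 9 platelet markers, a lineage that also uses Gata1, was lower at B6 2 w (143.7) than in any other group (299.1 to 569.7), and the Gata1 change there was -0.27 (adjusted p = 0.0538). Where Gata1 rose, these markers were called higher too: 9 of 9 at DBA/2 2 w (median 0.62) and at DBA/2 9 w (0.65), and 8 of 9 at B6 4 w (0.50). They were also called higher where no scaled Gata1 change was called. That held for 8 of 9 at DBA/2 4 w (0.47), 7 of 9 at B6 8 w (0.63) and 5 of 9 at B6 9 w (0.40). At DBA/2 8 w 2 were higher and 1 lower. Of all tested probes, 9.33% to 27.7% were called in these comparisons. The part of platelet RNA in the Gata1 values was not tested.

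**Figure D3:**
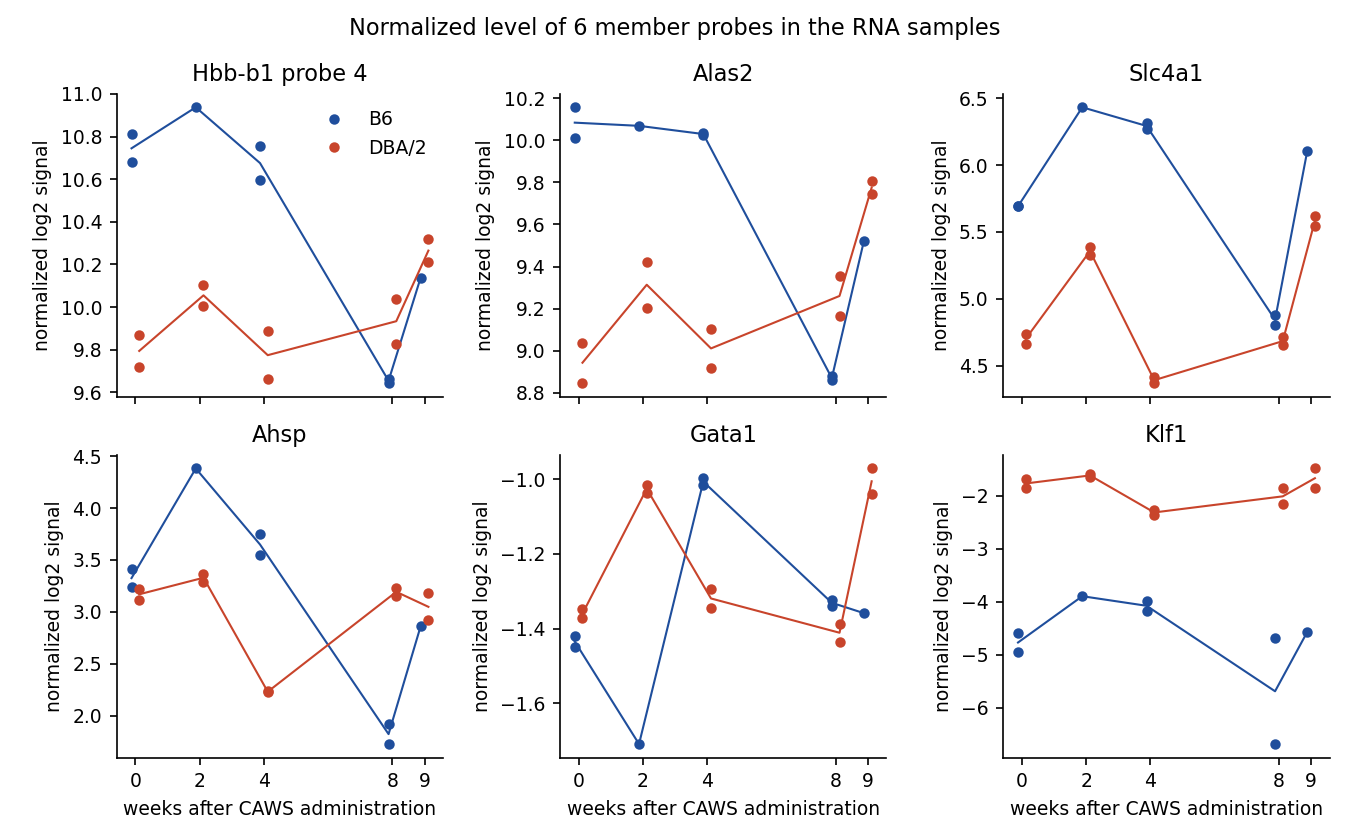
Scaled level (log2 signal minus the array's 75th percentile) of 6 member probes by week in B6 and DBA/2; points are samples, lines join group means, B6 2 w and 9 w have 1 sample, and each panel has its own axis range. Ahsp is lowest at 4 w in DBA/2 and at 8 w in B6, and the Klf1 levels of the strains do not overlap.

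Counted over the 7 unsaturated probes in DBA/2, 2 were called higher and 0 lower at 2 w, where 15.7% of all tested probes were called, 0 and 2 at 4 w (14.8% of all), 0 and 0 at 8 w (24% of all) and 5 and 0 at 9 w (27.7% of all). At 8 w limma called none of the 7, and 1 had an unadjusted p under 0.05. The median changes of the 7 were 0.26, -0.02, 0.02 and 0.40, against -0.05, -0.10, -0.18 and -0.03 over all tested probes. In B6, 2 were higher and 0 lower at 2 w (13% of all tested probes were called), 2 and 0 at 4 w (15.7% of all), 0 and 5 at 8 w (21.2% of all) and 1 and 3 at 9 w (9.33% of all). Their medians were 0.22, 0.32, -1.08 and -0.46, against 0.08, -0.03, -0.04 and 0.004. Without scaling the counts at B6 8 w were 1 higher (Gata1) and 1 lower (Ahsp), beside 62.1% of all probes called, at B6 9 w 2 and 0 (25.8% of all), and at DBA/2 9 w 1 and 1 (38.9% of all). With normexp background correction, which called 0.378% to 10.4% of all probes in these 8 comparisons, the calls were 0 and 1 at DBA/2 4 w, 1 and 0 at B6 2 w and 0 and 4 at B6 8 w, with none called by limma at the other weeks (0 to 3 of the 7 had an unadjusted p under 0.05 there, 3 of them at DBA/2 9 w). The 5 calls at DBA/2 9 w were thus 0 with normexp and 2 with quantile normalization. With normexp the median of all probes moved by 0.78 at DBA/2 9 w and by -0.64 at B6 8 w. On the array of DBA/2 9 w replicate 2, 1187 spots were marked as outliers, against 64 to 180 on the other arrays, and without that sample the 5 calls were kept. With the replicate number, which went with the scan day, as a block, the calls over the 4 weeks were 13 in DBA/2 and 16 in B6, against 9 and 13 without it. The share of all probes called rose as well. By week it was 20.1% to 33.7% in DBA/2 with the block, against 14.8% to 27.7%, and 13.4% to 26.8% in B6, against 9.33% to 21.2%. The B6 9 w calls of Alas2 and the globin probes 3 and 4 (-0.56, -0.58 and -0.61) rested on 1 sample. They were lost when either B6 0 w sample was left out. The Alas2 call was also lost without any sample of B6 4 w or 8 w, and that of probe 3 without any of B6 8 w or of DBA/2 0, 2 or 4 w (adjusted p 0.0527 to 0.162). At DBA/2 9 w the call of probe 4 was lost without DBA/2 9 w replicate 1 or DBA/2 0 w replicate 2 (0.059 and 0.0903), and that of probe 3 without DBA/2 9 w replicate 1 or any sample of DBA/2 0 or 2 w or B6 8 w (0.0513 to 0.174).

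All 8 comparisons from 0 w rest on the same 0 w samples within a strain, and the B6 0 w samples stood apart in markers of another tissue. The summed scaled level of 10 hepatocyte markers was 48.8 to 49.9 in B6 0 w and 28.6 to 29.7 in B6 8 w, against 0.605 to 1.6 in all other groups. The 11 neutrophil markers summed to 57.2 to 57.4 at B6 0 w and 429 to 431 at B6 8 w, and to 106 to 107 and 704 to 783 in DBA/2. T cell markers (6.18 to 9.997) and B cell markers (13.4 to 28.9) were found in all groups. On the same scale the globins, saturated probes included, summed to 3479 to 8526 and the reticulocyte and late erythroid genes to 665 to 2346. Globin probes held 12.77% to 19.55% of the summed signal of an array. The RNA thus held much red cell RNA beside that of leukocytes. The part of hepatocytes, neutrophils, T cells and B cells in the member changes was not tested. Where 1 slide held 2 B6 groups, the direct contrast of 1 array with 1 array gave -1.48 at 8 w and 0.97 at 2 w for Ahsp, and for Slc4a1 -0.84 at 8 w, 0.74 at 2 w and 0.62 at 4 w on both slides concerned. Unscaled, these contrasts were -0.39 at 8 w and 0.81 at 2 w for Ahsp. For Slc4a1 they were 0.25 at 8 w, 0.58 at 2 w and 0.79 and 0.61 at 4 w. On both slides that held DBA/2 0, 2, 4 and 8 w, the Ahsp change at 4 w was -0.996 and -0.88 (unscaled -0.97 and -0.88). The Slc4a1 change at 2 w was 0.72 and 0.59 there (unscaled 0.51 and 0.28).

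Scaled, most member probes were called between the strains, but for several of them this depended on the processing. Over 0, 4 and 8 w, 1 of the 7 probes was called higher in DBA/2 and 5 lower, beside 42.4% of all tested probes called, and the median was -0.46, against 0.04 over all tested probes. Slc4a1 was 2.02-fold lower in DBA/2 (log2 difference -1.02, SE 0.04, adjusted p = 6.8e-08) and stayed lower without scaling (-0.60). Alas2 and the globin probes 3 and 4 differed by -0.59, -0.46 and -0.52 (adjusted p = 6.92e-05, 0.000495 and 0.000153), and unscaled by -0.17, -0.04 and -0.10, with no call. Ahsp did not pass the test over the 3 weeks (-0.07, adjusted p = 0.464), although it differed by -1.42 at 4 w alone (adjusted p = 1.7e-05, with 32.1% of all tested probes called; -0.61 unscaled) and was called higher in DBA/2 without scaling (0.35, adjusted p = 0.00189). Gata1 differed by -0.11 (adjusted p = 0.0474). That call was lost in 14 of the 18 runs that left out a sample, namely each sample of either strain at 0, 4 and 8 w and of DBA/2 2 w (adjusted p 0.0628 to 0.105), and the sign turned to 0.31 without scaling and to 0.14 over all 5 weeks. Without scaling, 3 probes were called higher in DBA/2 and 1 lower, beside 61.3% of all probes. With quantile normalization 1 was called higher and 2 lower, beside 42.3% of all probes.

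Whether the change after CAWS differed between the strains was tested on the mean of 4 and 8 w against 0 w, where 13.2% of all tested probes were called. Of the 7 probes, 3 had a larger scaled change in DBA/2 (Alas2 0.83, adjusted p = 0.00475; Hbb-b1 probe 3 0.63, adjusted p = 0.0228; probe 4 0.64, adjusted p = 0.0171), 0 a smaller one, and the median was 0.13, against -0.04 over all tested probes. With normexp and with quantile normalization limma called none of the 7 (3 and 1 had an unadjusted p under 0.05). Without scaling the counts were 0 and 3 (Slc4a1, Ahsp and Gata1), beside 40.1% of all probes called, and the values of Alas2 and the globin probes 3 and 4 were 0.22, 0.02 and 0.04. Without B6 0 w replicate 1 or without DBA/2 0 w replicate 2, only Alas2 was called, and without DBA/2 0 w replicate 1 probe 3 was at the threshold (adjusted p 0.05 to 0.101 for the lost calls). For Ahsp and Slc4a1 the mean over both weeks hid opposite differences. At 4 w, where 11.8% of all tested probes were called, the change in DBA/2 was lower than that in B6 by -1.26 for Ahsp (adjusted p = 0.00123), -0.91 for Slc4a1 (adjusted p = 0.000408) and -0.39 for Gata1 (adjusted p = 0.0252). At 8 w (17.5% of all) it was higher by 1.52 for Ahsp (adjusted p = 0.000422) and 0.83 for Slc4a1 (adjusted p = 0.000661). The 4 w differences of Ahsp and Slc4a1 were also called without scaling (-1.28 and -0.93), that of Gata1 was not (-0.41, adjusted p = 0.102). At 8 w the unscaled difference was 0.34 for Ahsp (adjusted p = 0.123), and that of Slc4a1 turned to -0.36 (adjusted p = 0.041). Of these 5 differences, normexp kept the call of Ahsp at 8 w (adjusted p = 0.042), and quantile normalization lost those of Slc4a1 at both weeks (adjusted p = 0.0572 and 0.226).

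The other genes of the red cell programme were read from 5 lists, with 1 probe per gene and members included. Of all tested probes, 15.7%, 14.8%, 24% and 27.7% were called at DBA/2 2, 4, 8 and 9 w. In B6 the shares were 13%, 15.7%, 21.2% and 9.33%. These shares stand beside the scaled counts of every list. The changes of named genes are scaled as well. At B6 8 w the unscaled medians were 0.24 (membrane), 0.09 (reticulocyte), 0.65 (haem), 1.05 (transcription) and -0.14 (globins), beside 0.98 over all probes. A fall named at B6 8 w is therefore relative to the other transcripts of the array. Among 18 genes of the red cell membrane and its skeleton, 11 rose and 0 fell at DBA/2 2 w (median 0.49), 0 rose and 6 fell at 4 w (-0.19), 5 rose and 3 fell at 8 w (0.13) and 13 rose and 0 fell at 9 w (0.88). In B6 the counts were 12 and 1 at 2 w (0.61), 11 and 0 at 4 w (0.50), 0 and 15 at 8 w (-0.78) and 3 and 1 at 9 w (-0.01). Sptb, β-spectrin of the membrane skeleton, rose by 1.15 at DBA/2 9 w and changed by -1.30 at B6 8 w (adjusted p = 3.11e-05 and 1.39e-05). Tmod1, which caps actin filaments, followed with 1.25 and -1.10 (adjusted p = 0.006 and 0.0142). Epb42, a membrane protein that binds band 3, rose by 1.18 at B6 2 w (adjusted p = 0.000181). Aqp1, the water channel, changed by -1.22 at DBA/2 4 w (adjusted p = 0.000945). Ermap, the Scianna blood group protein, changed by -1.27 at DBA/2 4 w and by 1.70 at B6 2 w (adjusted p = 0.0181 and 0.0124).

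Among 14 reticulocyte and late erythroid genes, 9 rose and 0 fell at DBA/2 2 w, 0 and 4 at 4 w, 6 and 1 at 8 w and 10 and 1 at 9 w. In B6 the counts were 9 and 0, 6 and 0, 1 and 12, and 1 and 2. Tfrc, the transferrin receptor that brings iron into the cell, changed by -1.24 at DBA/2 4 w and by 1.30 at B6 2 w (adjusted p = 5.58e-05 and 0.000119). Car2, a carbonic anhydrase, and Bpgm, which makes the allosteric effector of haemoglobin 2,3-bisphosphoglycerate, rose by 0.91 and 0.89 at DBA/2 2 w (adjusted p = 0.000379 and 0.000335). Xpo7, a nuclear export receptor, rose by 1.21 at B6 2 w (adjusted p = 0.000472). The antioxidant enzyme Prdx2 changed by -1.29 and the exonuclease Isg20 by -1.11 at B6 8 w (adjusted p = 5.01e-06 and 0.00028).

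Among 11 genes of haem synthesis and transport, 3 rose and 1 fell at DBA/2 2 w, 0 and 3 at 4 w, 1 and 1 at 8 w and 5 and 0 at 9 w, and in B6 5 and 0, 5 and 1, 0 and 6, and 0 and 2. Slc25a37, the mitochondrial iron importer mitoferrin, rose by 0.96 at DBA/2 9 w (adjusted p = 0.000649). Fech, which inserts iron into the ring in the last step, rose by 0.84 there and changed by -0.79 at B6 8 w (adjusted p = 7.89e-05 and 0.000107). Enzymes of later steps rose at B6 2 w, with 0.93 for Cpox and 0.82 for Urod (adjusted p = 0.00169 and 0.00184), and Urod rose by 0.68 at DBA/2 9 w (adjusted p = 0.000974). Alad, the second enzyme, changed by -0.68 at DBA/2 4 w (adjusted p = 0.000205). Of the globins outside the members, 3 could be compared. Hbq1, θ-globin, changed by -1.48 at B6 8 w and by -0.65 at DBA/2 8 w (adjusted p = 2.04e-06 and 0.000237), and the embryonic Hbb-y by -1.16 at B6 8 w and by 0.54 at DBA/2 9 w (adjusted p = 0.000999 and 0.0371).

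Among the 12 erythroid transcription and signalling genes the counts in DBA/2 were 5 higher and 1 lower at 2 w, 1 and 1 at 4 w, 0 and 5 at 8 w and 5 and 2 at 9 w, and in B6 3 and 4, 5 and 0, 2 and 3, and 1 and 0. Nfe2, which activates globin and platelet genes, and Lmo2, a partner of Gata1, rose by 0.65 and 0.56 at DBA/2 2 w (adjusted p = 0.00554 and 0.00651). Bcl11a, a repressor of embryonic globins that B cells also use, changed by -1.53 at DBA/2 8 w (adjusted p = 4.11e-06), and Myb, a factor of progenitor cells, by -1.19 at DBA/2 9 w (adjusted p = 0.0152). At B6 2 w Tal1, Epor, the erythropoietin receptor, and Gfi1b changed by -1.13, -0.997 and -0.98 (adjusted p = 0.000119, 0.000394 and 0.000112). Tal1 and Gfi1b also act in platelet precursors, and the 9 platelet markers were all called lower in that sample. The part of platelet RNA in these B6 2 w changes was not tested. Sox6 changed by -0.82 at B6 8 w (adjusted p = 0.00225).

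The list counts depended on the processing. Without scaling, where 62.1% of all probes were called at B6 8 w and 25.8% at 9 w, the membrane list had 8 higher and 0 lower at B6 8 w and 9 and 0 at 9 w, the reticulocyte list 4 and 1 and then 3 and 0, the haem list 5 and 0 and then 6 and 0, and the transcription list 8 and 0 and then 3 and 0. Scaling subtracts 1 value per array, so relative to the shift of all probes the lists' medians are nearly the same on both scales by construction. That sameness is no test of the lists. In DBA/2 the unscaled counts at 2 w (23.2% of all probes called) were 7 and 2 (membrane), 5 and 1 (reticulocyte), 0 and 1 (haem) and 0 and 1 (transcription). At 9 w (38.9% of all probes called) they were 10 and 2, 4 and 2, 2 and 3, and 0 and 4. Unscaled, the counts of the membrane, reticulocyte and haem lists were 0 and 4, 0 and 3, and 0 and 2 at DBA/2 4 w (9.82% of all probes called). At B6 2 w (9.94% of all) they were 6 and 1, 5 and 0, and 3 and 0. At B6 4 w (9.53% of all) they were 8 and 0, 5 and 0, and 3 and 0.

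With normexp background correction fewer genes of each list were called. Of all probes, it called 0.67%, 1.29%, 2.73% and 10.4% at DBA/2 2, 4, 8 and 9 w. In B6 the shares were 1.24%, 0.378%, 3.16% and 0.419%. With normexp the median of all probes itself moved by 0.78 at DBA/2 9 w, by -0.64 at B6 8 w and by -0.34 at B6 9 w. At the other weeks it moved by -0.12 to 0.001. The counts hold these shifts. The membrane list then had 4 higher and 0 lower at DBA/2 2 w, 0 and 2 at 4 w, 1 and 1 at 8 w and 10 and 0 at 9 w, and in B6 3 and 0, 1 and 0, 0 and 4, and 0 and 0. The reticulocyte list had 0 and 0, 0 and 1, 0 and 0, and 2 and 0 in DBA/2, and 2 and 0, 0 and 0, 0 and 7, and 0 and 0 in B6. Of the haem list, 9 genes could be compared, and 1 was called, lower at B6 8 w. The transcription list had 0 and 1, 0 and 0, 0 and 1, and 1 and 0 in DBA/2, and 0 and 1, 0 and 0, 1 and 0, and 0 and 0 in B6. Where limma called none of a list with normexp, 0 to 9 genes had an unadjusted p under 0.05.

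**Figure D4:**
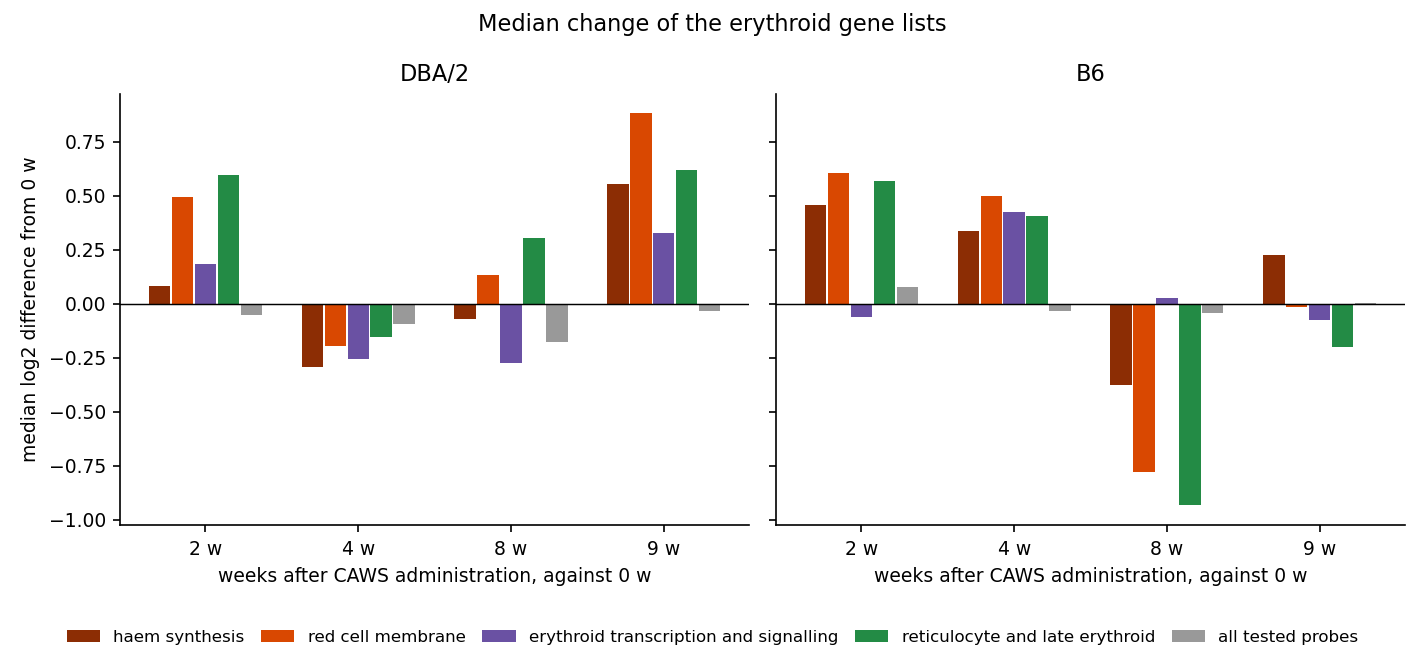
Median scaled log2 change from 0 w of the erythroid gene lists and of all tested probes, by strain and week; each bar is 1 list in 1 comparison. The membrane list has medians of 0.61 at B6 2 w and -0.78 at B6 8 w, and of 0.49 at DBA/2 2 w and 0.88 at DBA/2 9 w.

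Between the strains, over 0, 4 and 8 w, 42.4% of all tested probes were called, and 61.3% without scaling. The reticulocyte list had 1 gene higher and 9 lower in DBA/2 (median -1.004, against 0.04 over all tested probes). Without scaling the counts were 4 and 8. The membrane list had 7 and 9, the haem list 3 and 7 and the transcription list 4 and 4, and unscaled 9 and 6, 4 and 1, and 8 and 2. In the strain difference of the change 13.2% of all tested probes were called. There the reticulocyte list had 4 higher and 1 lower, the membrane list 4 and 3, the haem list 1 and 2 and the transcription list 0 and 2. Unscaled, beside 40.1% of all probes called, these counts were 0 and 6, 0 and 11, 0 and 7, and 0 and 10.

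Among the members' own profiles over the 18 samples, with the brightest probe of each gene that was saturated on no array (a choice made after seeing the data, which leaves out Hba-a1), Ahsp was the most like the mean of the others (Pearson r = 0.76), followed by Hbb-b1 (0.54), Alas2 (0.52), Slc4a1 (0.32), Gata1 (0.27) and Klf1 (-0.11). With the brightest probe of each gene, which brings in the saturated Hba-a1 and Hbb-b1 probes, of 16590 genes compared, those most like the members' mean were Arl4a (r = 0.97), the transcript ENSMUST00000045307 (0.95), Spnb1, an older symbol of Sptb (0.95), Slc16a10 (0.95), Acp1 (0.95), Cdkl1 (0.95), Fech (0.94), Tusc1 (0.94), Bola3 (0.94) and Asb1 (0.94). Without the saturated probes, 7 of these 10 were again among the 10 most like the mean. The members' mean itself had an r of -0.74 with the array's percentile (-0.67 without the saturated probes), which all these levels share. The correlations are descriptions over 18 samples of 2 strains, and no test was made of them.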

How the data were processed

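Leukocyte RNA of 18 samples was read on 19 Agilent arrays with 43379 spots each. The deposited values are processed signal intensities, which the authors extracted with Agilent Feature Extraction (9.5.3.1 per the labels' processing notes), background-subtracted and not scaled between arrays. The deposited series table holds the same intensities. Columns of per-sample values left unused numbered 0.

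Here log2 intensity minus each array's 75th percentile over 11536 probes well above background on all 19 arrays was used, after flagged outlier spots were left out, spots of a probe were averaged and the 2 arrays of B6 0 w replicate 2 were averaged. All 10 groups were fitted at once with limma 3.58.1 in R 4.3.3 (8 residual degrees of freedom, prior 1.37). Probes well above background in at least 2 samples were tested (22939), with Benjamini-Hochberg adjustment at 0.05. With 1 or 2 samples a group, the number of arrays limits the precision. The fit was tested on simulated data.

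The members and the gene lists were chosen with earlier results of these data known. Member calls are counted over the 7 probes that were saturated on no array, and over all 10 the calls from 0 w were 12 in DBA/2 and 19 in B6, with 9 between the strains and 6 in the difference of the change. Genes named from the lists are up to 4 per list and strain, those with the largest absolute change at any week among the called, of which some are not reported here. Likeness was ranked over genes that are no members. The lists used for other cells were hepatocyte, platelet, neutrophil, basophil and eosinophil, monocyte, red pulp macrophage, T, B and NK cell and cell cycle genes, of which the monocyte (97.5 to 242), basophil and eosinophil (0.419 to 1.40), red pulp macrophage (0.555 to 3.12), NK cell (2.60 to 5.39) and cell cycle (2.45 to 9.23) sums are given as ranges over samples on the scaled linear level. Arrays lay on 6 slides scanned on 2 days, and the scan day went with the replicate number. Alternatives changed the background correction (normexp, offset 50), scaling, filter, outlier spots, blocks, technical repeat, weeks and samples.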

Additional observations from a re-analysis of the deposited data

Results flagged for a closer look

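The strain difference of the change from 0 w passed the test for 11 results of the member probes, each a test of the difference itself. On the mean of 4 and 8 w these were Alas2 with 0.83 (log2, DBA/2 minus B6), Hbb-b1 probe 3 with 0.63 and probe 4 with 0.64. At 4 w alone (11.8% of all tested probes called) they were Slc4a1 with -0.91, Ahsp with -1.26 and Gata1 with -0.39. At 8 w alone (17.5%) they were Slc4a1 with 0.83, Alas2 with 1.53, Hbb-b1 probe 3 with 1.20, probe 4 with 1.23 and Ahsp with 1.52. The unscaled changes at B6 8 w were -0.19 for Alas2, -0.06 and -0.07 for Hbb-b1 probes 3 and 4 and -0.48 for Ahsp, of which that of Ahsp was called. Without scaling the 8 w difference was -0.36 for Slc4a1 and 0.34 for Ahsp. No group had 4 samples, so single samples far from their group were not looked for.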

How the results depend on the processing

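The number of member calls from 0 w in DBA/2 was 9, and 1 with normexp background correction, 5 with quantile normalization, 4 without scaling and 4 without the filter on dim probes; leaving out 1 sample gave 6 to 9. In B6 it was 13, and 5 with normexp, 4 with quantile normalization and 8 without the filter; leaving out 1 sample gave 9 to 14, where B6 2 w replicate 1 and B6 9 w replicate 2 could not be left out, since each is its group's only sample. Strain calls were 6, and 3 with quantile normalization (5 to 6 with a sample left out). Calls of the strain difference of the change were 3, and 0 with normexp and 0 with quantile normalization (limma, with 3 and 1 at an unadjusted p under 0.05), 1 without the filter and 5 at 8 w alone (1 to 3 with a sample left out). These counts were within 1.5 times under the other alternatives, but a like count can hold other calls. Without scaling the strain calls were 3 higher and 1 lower, against 1 and 5 with it. Those of the change were 0 and 3, against 3 and 0, and those at B6 8 w 1 and 1, against 0 and 5. The sign turned under quantile normalization for Alas2 between strains (0.024) and at DBA/2 9 w (-0.017), for Hbb-b1 probe 3 at DBA/2 9 w (-0.17) and for probe 4 at B6 8 w (0.0564), B6 9 w (0.0561) and DBA/2 9 w (-0.031). It turned without scaling for Slc4a1 at B6 8 w (0.17), Gata1 between strains (0.31) and at DBA/2 9 w (-0.076) and Hbb-b1 probe 3 at DBA/2 9 w (-0.034), and over all 5 weeks for Gata1 between strains (0.14). The cause was not tested. Sample deviations of the same replicate number had an r of 0.0168 to 0.4093 in 28 pairs of groups. All were above 0 but not all above 0.1, and the numbers were not taken to pair the samples. With a replicate block, which is also a scan day block, the counts were 13 (DBA/2), 16 (B6), 6 (strain) and 4 (change). The share of all probes called rose too, from 42.4% to 47.3% (strain) and from 13.2% to 18.3% (change). Slide as a fixed block left 4 residual degrees of freedom and gave 18 for B6 and 3 for the change; it could not be fitted for DBA/2 9 w or the strains. Slide as a random block, added after seeing the data, gave 13, 16, 5 and 4. Dim signal limits Klf1 in B6, and saturation limits Hba-a1 and 2 of the Hbb-b1 probes.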
